A study of Mus musculus with 4 samples.

Results

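Cluster 4 is a group of nuclei from mouse kidney cortex that the authors placed together by their RNA, and that carries here the working name of a thick ascending limb cluster with high Egf and Casr. Its members are all nuclei in the 4 deposited columns that bear this cluster's number, 1 column for each genotype. The columns hold mean levels, and the number of nuclei behind each was recovered from the smallest steps in its values. Cluster 4 held 2127 of the 26144 nuclei in 23 clusters. They numbered 561 in the Klf4 dEC Nos3 null library, 476 in Klf4 dEC, 524 in Nos3 null and numbered 566 in the control.

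The thick ascending limb is the stretch of the nephron, between the loop of Henle and the distal convoluted tubule, that takes up sodium chloride without water and so dilutes the urine. The sodium-potassium-chloride cotransporter NKCC2 (gene Slc12a1) and the potassium channel ROMK (Kcnj1) work in its apical membrane, and the resulting voltage drives calcium and magnesium between the cells through claudin pores. It secretes uromodulin (Umod), makes epidermal growth factor (Egf) and reads blood calcium through the calcium-sensing receptor (Casr). A small plaque of its cells, the macula densa, senses tubular salt beside the glomerulus.

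The study asked what loss of the transcription factor Klf4 from the endothelium does to the renal cortex with and without endothelial nitric oxide synthase (gene Nos3). Nuclei came from frozen cortex of mice labelled C57BL/6J and were run as droplet libraries, with 1 library per genotype. The 4 genotypes were Klf4deltaEC Nos3-/- (called Klf4 dEC Nos3 null here: endothelial Klf4 deletion and no Nos3), Klf4deltaEC (Klf4 dEC: endothelial Klf4 deletion alone), Nos3-/- (Nos3 null) and Klf4flox/flox (the control, whose Klf4 alleles are floxed but carry no deletion by their label). The labels name neither the Cre driver, the age nor the number of mice in a library. A difference between libraries therefore has no replicate check, and no p-value is given. Levels are unique molecular identifiers (UMIs, counted RNA molecules) per 10000 in an average nucleus. Intervals are 95% and cover counting error only.

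The targeted genes were read first. In endothelial cluster 10, Klf4 stood at 0.825 in Klf4 dEC Nos3 null, 0.779 in Klf4 dEC, 0.445 in Nos3 null and at 0.621 in the control. Nos3 in the same cluster stood at 2.07, 0.930, 1.52 and 1.26 in the libraries in that order. Neither gene was lower in a library labelled with its deletion than in the control, so genotypes are given as labels throughout. In cluster 4, where Klf4 is not the intended target, Klf4 lay between 0.0251 and 0.0358 and Nos3 between 0 and 0.0140.

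The Nos3 null library stood apart in cluster 4. Its median nucleus held 1771 UMIs, against 3807 in Klf4 dEC Nos3 null, 2756 in Klf4 dEC and 3427 in the control. The summed level of 14 proximal tubule markers in cluster 4 was 53.1 in Nos3 null, against 11.97 in Klf4 dEC Nos3 null, 15.4 in Klf4 dEC and 15.9 in the control. In Nos3 null it was similar in the neighbouring clusters, at 56.2 in cluster 2 and 49.6 in cluster 19. The 13 genes encoded in mitochondrial DNA summed to 26.1 in Nos3 null and to between 56.6 and 60.3 in the other libraries. At the recovered depth, 3 counts correspond to a level of 0.0151 in Klf4 dEC Nos3 null, 0.0254 in Klf4 dEC, 0.0357 in Nos3 null and of 0.0168 in the control. The table holds no cell barcodes, so barcodes shared between libraries were not counted.

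The markers went with the working name but are no test of it. Egf, Casr and Slc12a1 are among the thick ascending limb markers listed and helped to draw the cluster. The rank of the summed level is therefore a description. All 14 thick ascending limb markers of the list were detected, and their summed level in cluster 4 was the highest of the 23 clusters in every library, at 400 in Klf4 dEC Nos3 null, 442 in Klf4 dEC, 241 in Nos3 null and at 410 in the control. Distal convoluted tubule markers summed to 8.89, 8.96, 13.8 and 10.1 in the same order, connecting tubule markers to 5.64, 6.25, 18.3 and 5.97, and endothelial markers to 0.445, 0.698, 1.35 and 0.614. The 8 macula densa markers summed to between 0.254 and 0.599, against 13.1 to 24.6 in cluster 19, where 0 to 3 of the 8 were at 0. Robo2 alone made up 9.25 to 18.9 of the cluster 19 sum. The sum of the 8 was highest in cluster 15 in every library, at 22.5 to 49.0. Cluster 15 also held the highest podocyte marker sum, at 117.5 to 146.6.

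The cluster was marked by 5 genes, and their levels are a description because they helped to draw it. Egf (chromosome 3, 129677565 to 129755316, minus strand, GRCm38) averaged 127 ± 32.8 in cluster 4, 43.7 ± 6.81 in cluster 2 and 147 ± 29.2 in cluster 19 (SD over 4 libraries of different genotype). By library it was 113 in Klf4 dEC Nos3 null, 158 in Klf4 dEC, 88.2 in Nos3 null and was 151 in the control in cluster 4, against 41.3, 37.0, 43.5 and 53.1 in cluster 2. The lowest cluster 4 value lay above the highest of cluster 2, while clusters 4 and 19 overlapped. Casr (chromosome 16, 36493696 to 36562141, minus strand) was 4.47, 7.83, 5.92 and 7.22 in cluster 4, 1.08, 1.90, 1.90 and 2.25 in cluster 2, and 7.28, 8.68, 6.93 and 9.93 in cluster 19, with the libraries in that order. Cluster 4 thus sat between the other two for Casr in every library.

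Enox1 (chromosome 14, 77156763 to 77721760, plus strand), which encodes a cell-surface oxidase, showed the widest spread of the 5. It stood at 3.55 in Klf4 dEC Nos3 null, 8.25 in Klf4 dEC, 5.40 in Nos3 null and at 3.99 in the control in cluster 4, at 0.0189, 0.0359, 0.218 and 0.0345 in cluster 2, and at 39.2, 45.1, 29.0 and 25.5 in cluster 19. The cluster 4 level was 9.05% to 18.6% of that in cluster 19. Slc2a13 (chromosome 15, 91267696 to 91573261, minus strand), the proton-coupled inositol transporter, was the reverse, at 4.90 to 7.43 in cluster 4 and 3.47 to 7.17 in cluster 2, which overlapped, against 0.430 to 1.62 in cluster 19. Slc12a1 (chromosome 2, 125152505 to 125230002, plus strand) did not separate cluster 4 from cluster 2: it was 107 to 210 in cluster 4, 115 to 225 in cluster 2 and 99.0 to 182 in cluster 19, lowest in Nos3 null each time.

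**Figure D1:**
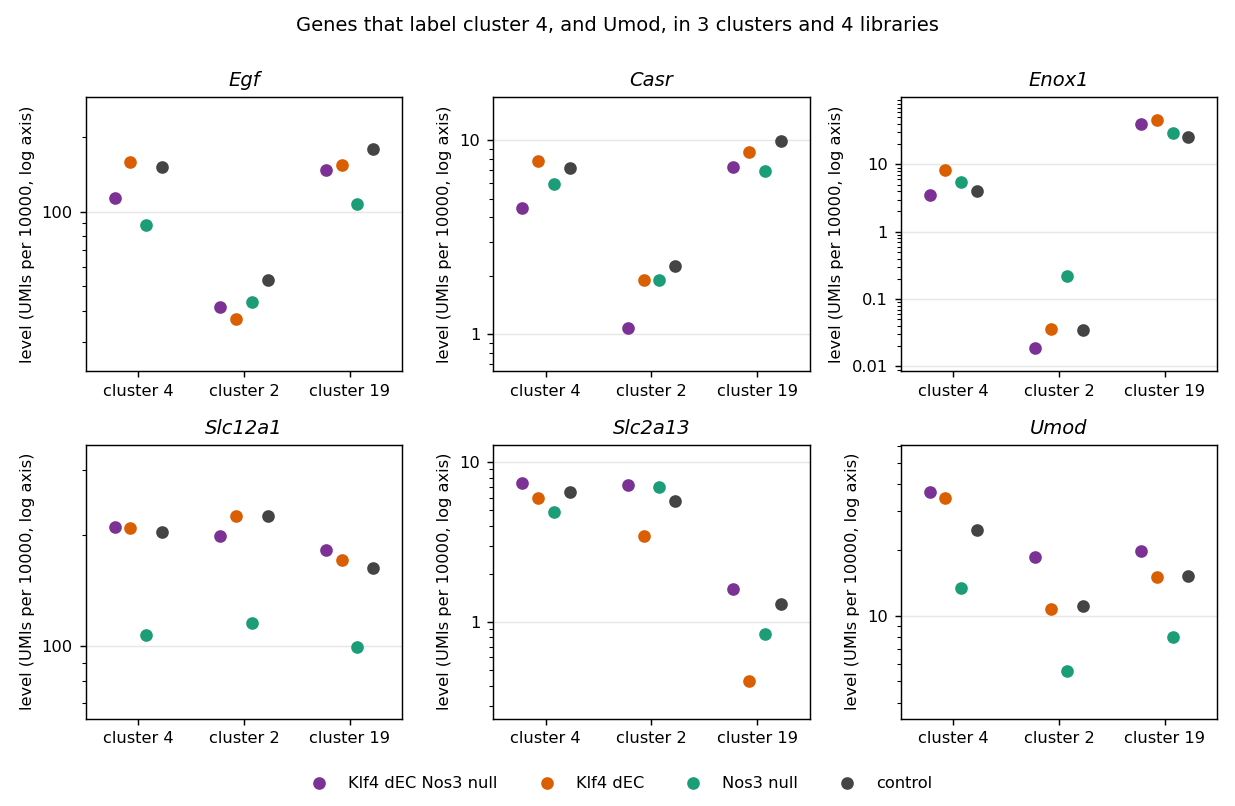
Levels in UMIs per 10000 (log axis) of 6 genes in clusters 4, 2 and 19, with 1 point for each library and cluster. Egf in cluster 4 (88.2 to 158) lies above cluster 2 (37.0 to 53.1), Enox1 and Casr run upward through clusters 2, 4 and 19, Slc2a13 is low in cluster 19, and Umod is highest in cluster 4 within every library.

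Promoter sequences are shown for Egf and Casr, which name the cluster. Each runs 5′ to 3′ along the gene's own strand from 250 bases before to 50 bases after the start, from RefSeq on GRCm38.p6, at the first start listed for the gene. The windows are chr3:129755273-129755572 for Egf and chr16:36562085-36562384 for Casr, both on the minus strand. All letters are in lower case, and no motif is marked.
Egf: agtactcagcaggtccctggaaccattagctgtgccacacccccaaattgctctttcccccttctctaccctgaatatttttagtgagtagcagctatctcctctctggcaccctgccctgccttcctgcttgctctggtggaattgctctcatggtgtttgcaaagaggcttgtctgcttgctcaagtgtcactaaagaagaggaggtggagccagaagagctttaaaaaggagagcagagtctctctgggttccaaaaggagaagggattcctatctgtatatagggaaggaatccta
Casr: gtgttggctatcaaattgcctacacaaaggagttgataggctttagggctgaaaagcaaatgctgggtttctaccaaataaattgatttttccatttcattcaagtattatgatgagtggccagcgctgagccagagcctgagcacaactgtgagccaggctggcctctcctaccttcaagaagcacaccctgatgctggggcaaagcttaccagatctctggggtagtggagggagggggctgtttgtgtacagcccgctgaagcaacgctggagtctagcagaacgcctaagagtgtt

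Cluster 4 differed from cluster 2 in few genes. Genes entered if the higher of both clusters reached 0.5 per 10000 in every library, the ratio was taken as log2 with 0.1 added to both levels, and a gene was counted when the ratio reached 1 (a doubling) in all 4 libraries, or −1 in all 4. Of 3345 genes, 31 were higher in cluster 4 than in cluster 2 (0.927%) and 10 were lower (0.299%). Since the clusters were drawn from these same genes, the counts describe the boundary and are no test of it. Within single libraries, 111 genes passed in Klf4 dEC Nos3 null, 250 in Klf4 dEC, 86 in Nos3 null and 126 did in the control, in either direction (2.66%, 6.27%, 2.11% and 3.22% of those entered). In cluster 2 of Klf4 dEC, Ranbp3l, a Ran-binding protein gene, was 59.8, against 6.13 to 9.37 in cluster 2 of the other libraries. The developmental regulators Pax2 and Sim1 were 14.9 and 21.9 there, against at most 5.70 and 9.53. The part of these levels in the count was not tested.

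Among genes of salt transport, Slc9a2 separated the clusters. Slc9a2, a sodium-proton exchanger, was 0.580 in Klf4 dEC Nos3 null, 0.543 in Klf4 dEC, 0.925 in Nos3 null and was 0.621 in the control in cluster 4, against 0.198, 0.127, 0.311 and 0.184 in cluster 2. The groups did not overlap, and Slc9a2 was higher again in cluster 19, at 1.08 to 1.67. ROMK did not separate the clusters: Kcnj1 was 3.45 to 5.97 in cluster 4, 3.22 to 6.78 in cluster 2 and 3.16 to 4.22 in cluster 19. Kcnj16, a basolateral potassium channel subunit, was 7.54 to 8.78 in cluster 4, 4.36 to 6.60 in cluster 2 and 10.8 to 11.6 in cluster 19, so the 3 clusters did not overlap although no ratio to cluster 2 reached the limit. The sodium-glucose cotransporter gene Slc5a1 was 1.5 to 2.74 in cluster 4, 0.140 to 0.452 in cluster 2 and 1.54 to 3.35 in cluster 19. It passed the limit against cluster 2, with a median log2 ratio of 2.43.

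Among genes of calcium and magnesium handling, many ran upward from cluster 2 through cluster 4 to cluster 19. Of 20 genes in the list, 12 entered against cluster 2. Of these, 3 were higher (Casr, Egf and Pth1r), against 0.927% of all genes, and 0 were lower. Casr and Egf mark the cluster and helped to draw it, so their place in these counts is a description. A ratio above 0 in all 4 libraries was found for 9, as for 584 of the 3345 genes (17.5%). The median log2 ratio was 0.52 (all genes, −0.01). Against cluster 19, 13 entered, 0 were higher, 2 were lower (Atp2b4 and Pth1r), against 1.23% of all genes, and the median was −0.43 (all genes, 0.05). Atp2b4 entered only through its level in cluster 19. The upward order held in all 4 libraries for 7 of the 13 genes that entered either contrast (53.8%), Casr, Pth1r, Vdr, Fxyd2, Atp2b1 and Atp2b4 among them, against 149 of the 3189 genes that entered both (4.67%). Pth1r, the parathyroid hormone receptor, was 1.01 in Klf4 dEC Nos3 null, 1.44 in Klf4 dEC, 2.48 in Nos3 null and was 1.21 in the control in cluster 4, against 0.417, 0.536, 1.09 and 0.377 in cluster 2 and 5.13, 3.58, 6.84 and 4.50 in cluster 19. Both Pth1r and the vitamin D receptor gene Vdr (1.38 to 2.23 in cluster 4, 0.275 to 1.20 in cluster 2, 2.09 to 2.93 in cluster 19) were highest in the proximal tubule marker-rich Nos3 null library in clusters 4 and 2, and the part of those markers in the result was not tested.

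Fxyd2, the gamma subunit of the sodium pump, which is mutated in inherited magnesium wasting, was 9.73 to 12.9 in cluster 4, 4.86 to 8.53 in cluster 2 and 14.9 to 20.6 in cluster 19, with no overlap. The plasma membrane calcium pump gene Atp2b4 was low in cluster 4, at 0.117 to 0.294, against 0.818 to 2.15 in cluster 19.

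The claudin genes, which form the pores between the cells, did not run one way. Cldn16, which encodes a claudin of the calcium and magnesium path, was 0.913 in Klf4 dEC Nos3 null, 0.745 in Klf4 dEC, 0.498 in Nos3 null and was 0.533 in the control in cluster 4. In the same order it was 0.123, 0.163, 0.197 and 0.0955 in cluster 2, and 2.36, 1.41, 0.957 and 1.55 in cluster 19. The levels of cluster 4 lay between the other two without overlap. Cldn10, which encodes the sodium pore, ran the other way, at 1.83 to 1.99 in cluster 4, 2.46 to 4.56 in cluster 2 and 0.474 to 0.831 in cluster 19. Cldn10 passed the limit over cluster 19 in all 4 libraries, and of the 6 of 16 claudin and junction genes that entered against cluster 2, 0 passed it. Cldn16 was too low to enter there in Nos3 null. Cldn19, the partner of Cldn16, was 0.302 to 0.592 in cluster 4 and overlapped both neighbours.

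Of 26 hormone receptor genes, 11 entered and 3 were higher in cluster 4 than in cluster 2 (Casr, Pth1r and Gcgr), against 0.927% of all genes. In this list 0 were lower, and the median was 0.26 (all genes, −0.01). Casr marks the cluster, and Casr and Pth1r are also in the calcium and magnesium list. Gcgr, the glucagon receptor gene, was 1.59 in Klf4 dEC Nos3 null, 1.68 in Klf4 dEC, 1.24 in Nos3 null and was 1.72 in the control in cluster 4, against 0.671, 0.441, 0.480 and 0.418 in cluster 2, with no overlap. Ptger3, a receptor for prostaglandin E2, was 7.24 to 13.2 in cluster 4 and 9.37 to 17.4 in cluster 2, against 0.684 to 2.30 in cluster 19. Nr3c2, the mineralocorticoid receptor gene, was 6.4 to 7.54 in cluster 4, 4.68 to 6.94 in cluster 2 and 8.53 to 10.2 in cluster 19, and was graded in this order within each library. Erbb4, a receptor of the epidermal growth factor family, did not follow Egf: it was 69.8 to 140 in cluster 4, 56.2 to 131 in cluster 2 and 79.4 to 140 in cluster 19.

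Umod (chromosome 7, 119462711 to 119479282, minus strand) peaked in cluster 4 in every library. It was 36.7 in Klf4 dEC Nos3 null, 34.6 in Klf4 dEC, 13.4 in Nos3 null and was 24.6 in the control in cluster 4, against 18.5, 10.7, 5.57 and 11.1 in cluster 2 and 19.8, 14.98, 7.96 and 15.1 in cluster 19. The log2 ratios to cluster 2 were 0.99, 1.69, 1.25 and 1.15, so it was just short of the limit in Klf4 dEC Nos3 null. In all, 105 of the 3189 genes (3.29%) were above both neighbours in every library and 26 (0.815%) below both. Of the 31 genes higher than in cluster 2, 4 were above both. Tenm4, a teneurin adhesion protein gene, was one: it was 2.82 to 4.05 in cluster 4, against 0.6 to 0.829 in cluster 2 and 0.634 to 1.87 in cluster 19. The other 3 were Kirrel3, an adhesion gene of the nephrin family, Ipcef1 and the monocarboxylate transporter gene Slc16a5.

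No transcription factor or energy gene of the lists passed the limit against cluster 2. Of 34 kidney transcription factors, 16 entered, 7 had ratios below 0 in all 4 libraries and 2 above, with a median of −0.28. Of all 3345 genes, 16.8% were below and 17.5% above in all 4 libraries, with a median of −0.01. Against cluster 19, 18 of the transcription factors entered, 7 were below and 5 above in all 4 libraries, with a median of −0.07. Ppargc1a, the coactivator of mitochondrial biogenesis, was 15.3 in Klf4 dEC Nos3 null, 19.7 in Klf4 dEC, 10.3 in Nos3 null and was 21.997 in the control in cluster 4, against 20.6, 31.1, 14.7 and 27.6 in cluster 2 and 7.22, 8.77, 8.41 and 14.95 in cluster 19. Within each library cluster 4 lay between the other two. Its partner receptor gene Esrrb was 8.86 to 13.96 in cluster 4, 9.33 to 20.3 in cluster 2 and 2.78 to 2.99 in cluster 19, and it passed the limit over cluster 19. Of 26 energy genes, 16 entered, 7 were below cluster 2 and 2 above it in all 4 libraries, with a median of −0.14. Against cluster 19, 1 of 16 passed the limit, higher in cluster 4, and 10 were above 0 and 1 below in all 4 libraries, with a median of 0.50. Of all 3426 genes, 21.4% were above and 13.4% below, with a median of 0.05. Idh2 and Hk1, of the citric acid cycle and glycolysis, were in the order 2 above 4 above 19 in every library. Tfcp2l1, a distal nephron transcription factor gene, was the counterexample, at 7.46 to 7.79 in cluster 4, 2.17 to 5.06 in cluster 2 and 10.4 to 14.1 in cluster 19.

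Most genes with the largest ratios over cluster 2 were higher still in cluster 19. Thsd4, which encodes a matrix protein of microfibrils, was 3.04 in Klf4 dEC Nos3 null, 6.51 in Klf4 dEC, 5.73 in Nos3 null and was 3.47 in the control in cluster 4, against 0.0294, 0.0497, 0.283 and 0.0167 in cluster 2. In cluster 19 it was 11.3 to 14.1. Cdh6, a kidney cadherin, was 1.18 to 1.88 in cluster 4, 0.0246 to 0.148 in cluster 2 and 2.38 to 5.12 in cluster 19, and the retrotransposon-derived gene Rtl4 was 1.25 to 1.74, 0.0372 to 0.297 and 2.99 to 4.27 in the same clusters. The secreted Wnt inhibitor gene Sfrp1 and the contactin gene Cntn5 followed the same order, at 0.519 to 1.24 and 1.06 to 2.24 in cluster 4 against 6.57 to 10.5 and 5.08 to 12.2 in cluster 19. Of the 31 genes higher than in cluster 2, 21 (67.7%) were higher still in cluster 19 in all 4 libraries.

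The 10 genes lower in cluster 4 than in cluster 2 were mostly lower still in cluster 19, which held for 8 of them. Sgcz, a sarcoglycan of the dystrophin complex, was 5.90 in Klf4 dEC Nos3 null, 6.42 in Klf4 dEC, 3.18 in Nos3 null and was 13.1 in the control in cluster 4, against 22.7, 49.96, 17.04 and 58.03 in cluster 2. Scel, the sciellin gene of the cornified envelope, was 0.195 to 0.745 in cluster 4 and 1.29 to 5.45 in cluster 2. Prox1, a homeobox gene, was 0.541 to 0.836 in cluster 4 and 1.71 to 2.54 in cluster 2, and Rgs7, a G protein regulator, 0.0142 to 0.0859 against 1.11 to 3.94. The remaining 6 were Ano4, Ank2, Gpc5, Ranbp3l, Filip1l and Lama1.

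Against cluster 19, of 3426 genes, 36 were higher in cluster 4 (1.05%) and 42 were lower (1.23%). Cluster 19 held 54 nuclei in Klf4 dEC Nos3 null, 64 in Klf4 dEC, 66 in Nos3 null and held 68 in the control, so 3 counts there are a level of 0.147 to 0.239 and its low values are imprecise. Of the macula densa markers, Nos1, Pappa2 and Robo2 entered, each only through its level in cluster 19. Nos1, the neuronal nitric oxide synthase gene of the macula densa, was 0 in Klf4 dEC Nos3 null, 0.0366 in Klf4 dEC, 0.0225 in Nos3 null and was 0 in the control in cluster 4, against 3.18, 1.96, 3.13 and 1.52 in cluster 19. Pappa2, a protease of insulin-like growth factor binding proteins, was 0.00688 to 0.0215 against 0.510 to 1.84. In cluster 4, Pappa2 was under the level of 3 counts in every library, and Nos1 was above it in Klf4 dEC alone. Enox1 was above it in every library.

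Other genes among the 42 were Wnk1, Nrxn3, Robo2 and Tshr. Wnk1, the kinase that acts upstream of NKCC2, was 9.18 in Klf4 dEC Nos3 null, 9.65 in Klf4 dEC, 6.97 in Nos3 null and was 6.55 in the control in cluster 4, against 45.2, 48.0, 22.3 and 30.8 in cluster 19, and 2.95 to 4.88 in cluster 2. The synaptic adhesion gene Nrxn3 was 0.432 to 1.91 in cluster 4 and 38.1 to 57.0 in cluster 19. The Slit receptor gene Robo2 was 0.211 to 0.496 in cluster 4 and 9.25 to 18.9 in cluster 19, and the thyrotropin receptor gene Tshr was 0.0176 to 0.183 in cluster 4 and 2.57 to 4.35 in cluster 19.

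Among the 36 genes higher in cluster 4 than in cluster 19 were Cacnb4, Pcsk6, Kcnt1, Ryr2 and Rbfox1. Cacnb4, a calcium channel beta subunit, was 35.9 in Klf4 dEC Nos3 null, 31.5 in Klf4 dEC, 24.6 in Nos3 null and was 34.1 in the control in cluster 4, and 32.8 to 51.7 in cluster 2, against 3.39, 2.78, 2.73 and 2.95 in cluster 19. Pcsk6, a proprotein convertase gene, was 4.14 to 5.48 in cluster 4 and 3.99 to 8.95 in cluster 2, against 0.0322 to 0.244 in cluster 19. Kcnt1, a sodium-activated potassium channel, was 1.53 to 2.75 in cluster 4 and 0 to 0.329 in cluster 19. Ryr2, the calcium release channel of the endoplasmic reticulum, and Rbfox1, a splicing factor gene, were above both neighbours in every library. Ryr2 was 1.20 to 1.34 in cluster 4, 0.244 to 0.618 in cluster 2 and 0.203 to 0.509 in cluster 19, and Rbfox1 was 6.87 to 8.33, 1.75 to 4.98 and 0.985 to 1.80 in the same clusters.

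**Figure D2:**
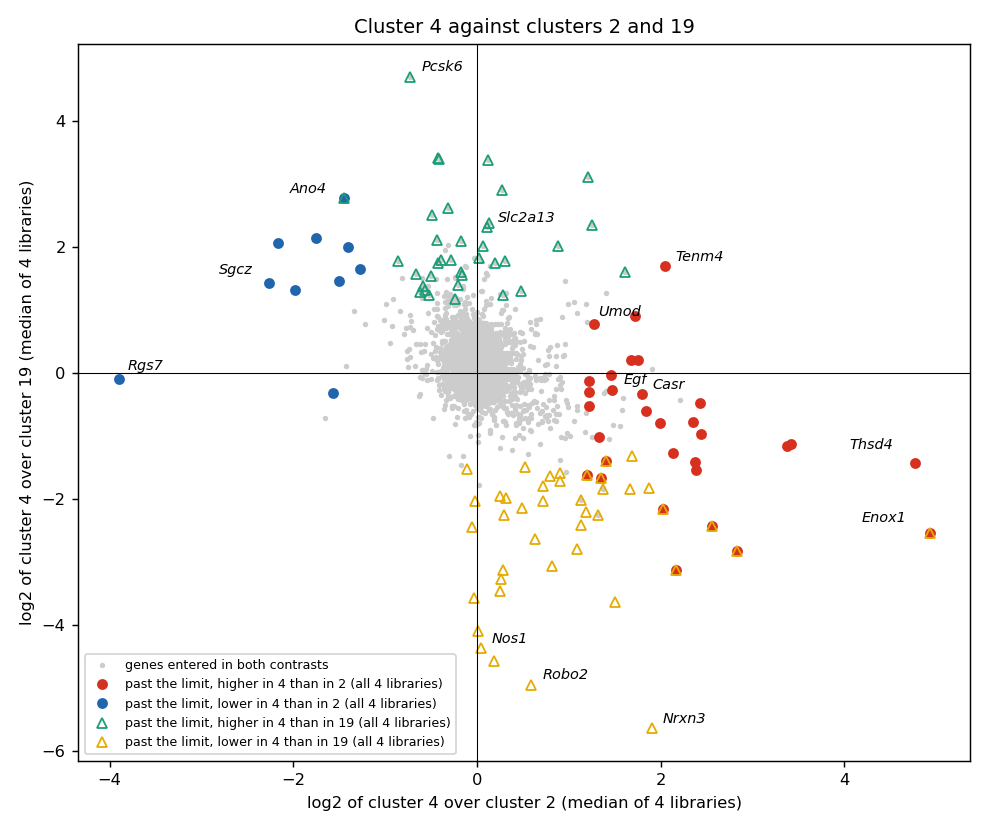
Median log2 ratio over 4 libraries of cluster 4 over cluster 2 (x axis) and over cluster 19 (y axis), 1 point per gene, with coloured points for genes past the limit in all 4 libraries. Of the 31 genes higher than in cluster 2, 21 lie in the lower right, being higher still in cluster 19 in every library.

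Cluster 4 had no gene of its own by the same limit: 0 of 3091 genes (0.0%) were at least 2-fold above each of the other 22 clusters in all 4 libraries, and 13 (0.421%) were highest in cluster 4 by any margin. Among clusters 2, 4 and 19 together, cluster 4 held 41.0% of nuclei in Klf4 dEC Nos3 null (95% exact binomial interval 38.4 to 43.7%), 45.1% in Klf4 dEC (42.0 to 48.1%), 49.95% in Nos3 null (46.9 to 53.0%) and 39.0% in the control (36.5 to 41.6%). Of all nuclei it held 10.2%, 6.92%, 7.48% and 8.37% in the same order. The clusters were drawn from genes that also differ between libraries, so the shares are given without comparison.

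Differences between libraries within cluster 4 follow, each from 1 library against 1. In Klf4 dEC against the control, 39 of 3940 genes were higher (0.99%) and 10 lower (0.254%), with the median gene at −0.05. Rescaled to that median the split was 46 higher and 5 lower. After the median ratio of the other 22 clusters was subtracted, 15 were higher (0.381%) and 3 lower (0.0761%). Cluster 2 passed the limit too for 16 of the 49, and for 4.3% of the genes tested there. Unnamed predicted or RIKEN genes made up 18 of the 39 higher genes (46.2%) and 3.91% of those tested.

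The gene with the highest ratio was Flvcr1 (chromosome 1, 191005847 to 191026158, minus strand), a heme and choline transporter gene and one of the 31 above cluster 2. It was 4.66 in Klf4 dEC and 1.04 in the control, a log2 ratio of 2.07 (1.93 to 2.42 by counting error, without the added 0.1, as for all ratio intervals here). It was 3.81 in Klf4 dEC Nos3 null (1.78 over the control) and 2.13 in Nos3 null (0.97). The same ratio for Klf4 dEC was 1.28 in cluster 19, 0.11 in cluster 2 and 0.28 at the median of the other clusters. Sec14l1, a lipid-binding protein gene, was 1.91 in Klf4 dEC Nos3 null, 2.19 in Klf4 dEC and 1.90 in Nos3 null, against 0.689 in the control. All 3 ratios passed the limit, at 1.35, 1.54 and 1.34, and the other clusters' median lay between 0.13 and 0.28.

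Of the 42 genes lower in cluster 4 than in cluster 19, 18 were tested in Klf4 dEC against the control, 6 were higher (Enox1, Sfrp1, Mmd, Sec14l1, Tmem52b and Unc5d), 0 were lower and 15 lay above 0. Their median was 0.64, against −0.05 for all genes. The contrast used the same cluster 4 values, so the genes are not an independent choice. Enox1 was 8.25 in Klf4 dEC and 3.99 in the control, at 1.03 (0.91 to 1.19), with 0.82 in cluster 19 and 0.01 in cluster 2. All 14 thick ascending limb markers had ratios above 0 in this comparison, as did 41.85% of all genes, with a median of 0.43, but 0 passed the limit. On the lower side stood Ccbe1 at −1.37, the metallothionein gene Mt2 at −1.22, and Slc8a1, the sodium-calcium exchanger of the connecting tubule, at −1.16. Slc8a1 was 1.16 in Klf4 dEC and 2.71 in the control.

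Nos3 null differed from the control in more genes: 264 of 4167 were higher (6.34%) and 99 lower (2.38%). Of the 264, 194 (73.5%) had their highest mean among the other clusters in 1 of 7 clusters rich in proximal tubule markers. That held for 22.9% of all genes tested. Lrp2, the megalin gene, was 9.09 in Nos3 null and 1.43 in the control, a ratio of 2.58, with 2.58 in cluster 2 and 2.22 in cluster 19. Of 14 proximal tubule markers, 12 were tested and 9 were higher. In Klf4 dEC against the control 9 were tested, so some of the 12 entered only through Nos3 null. Slc8a1 was 14.6 in Nos3 null and 2.71 in the control. The library's proximal tubule marker sum and low depth are those given above, and their part in these counts was not tested. Cluster 2 passed the limit for 304 of the 363 genes, and for 10.6% of those tested there. With the other clusters subtracted, 99 were higher (2.38%) and 30 lower (0.72%).

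Of 14 thick ascending limb markers, 13 were tested in Nos3 null against the control, 1 was lower (Wfdc15b, 0.389 in Nos3 null and 1.20 in the control), 8 lay below 0 and 5 above, with a median of −0.13. Kcnj1 was above, at 5.97 in Nos3 null and 3.45 in the control (0.78). The abundant members lay below 0 within the limit. Slc12a1 was 107 in Nos3 null and 204 in the control (−0.93), Egf 88.2 and 151 (−0.77), and Umod 13.4 and 24.6 (−0.87). For Umod the other clusters' median was −0.88, while for Slc12a1 it was 0.25 and for Egf 0.70. The nearest clusters differed from that median: Slc12a1 was lowest in Nos3 null in clusters 2 and 19 too. The 14 markers summed to 192.8 in Nos3 null and 319.3 in the control in cluster 2, and to 236.5 and 383.8 in cluster 19. Of 13 mitochondrially encoded genes, 10 were tested and 7 were lower, with a median of −1.19, and subtracting the other clusters left a median of 0.05. Sgcz and Ank2, the ankyrin-2 gene, both lower in cluster 4 than in cluster 2, were lower again. Sgcz was 3.18 in Nos3 null and 13.1 in the control (−2.01), and Ank2 0.499 and 1.63 (−1.53), with the other clusters at −0.22 and 0.33. By the levels given above, Sgcz was lower in Nos3 null than in the control in cluster 2 too. The metallothionein gene Mt1 was 0.108 in Nos3 null and 1.83 in the control (−3.21), and the other clusters were at −1.32. Wfdc15b, Ank2 and Mt1 reached the filter only through the control.

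**Figure D3:**
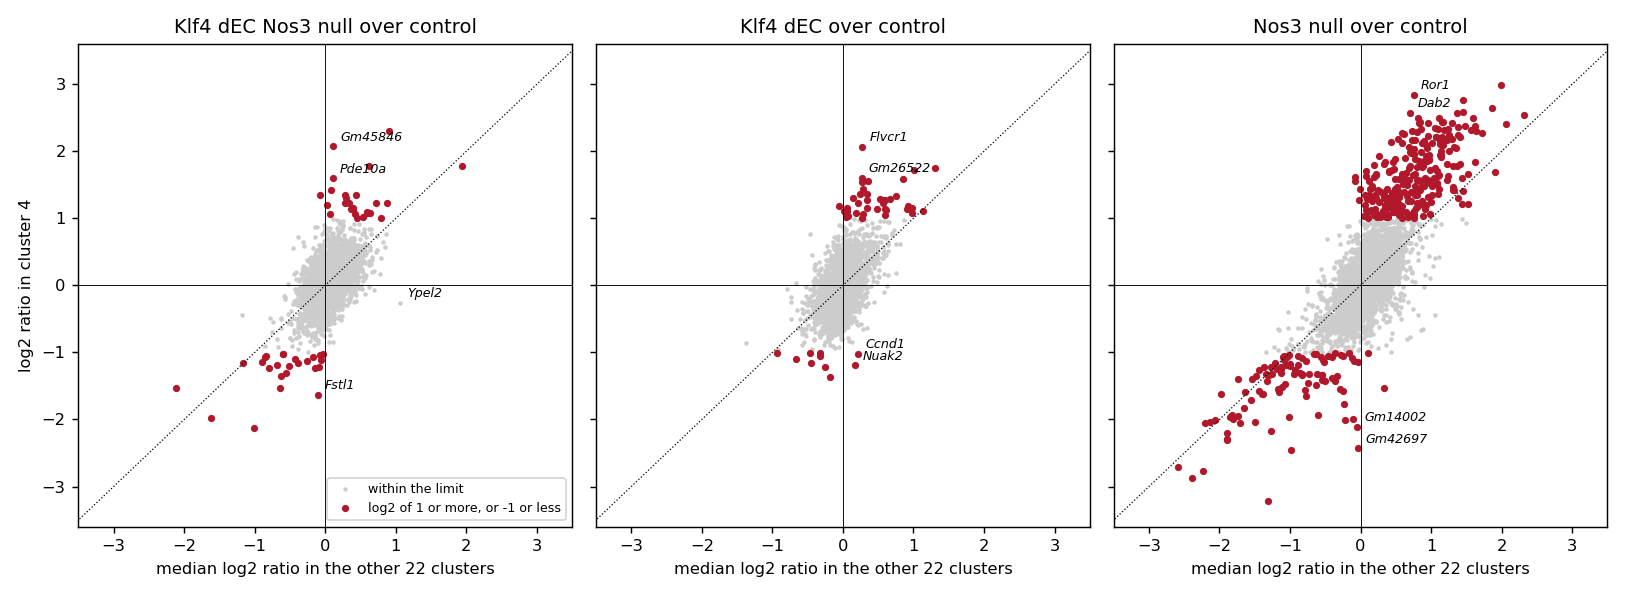
Log2 ratio to the control in cluster 4 (y axis) against the median ratio in the other 22 clusters (x axis), 1 point per gene tested, with red points past the limit and a dotted line of equality. Red points number 51 in Klf4 dEC Nos3 null, 49 in Klf4 dEC and 363 in Nos3 null.

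Klf4 dEC Nos3 null against the control gave 26 of 4106 genes higher (0.633%) and 25 lower (0.609%), and 13 (0.317%) and 6 (0.146%) with the other clusters subtracted. Of 12 targets of corticosteroid receptors, 9 were tested, 4 were lower (Fkbp5, Zbtb16, Tsc22d3 and Mt2) and 0 higher, with a median of −0.95 (all genes, 0.07), or −0.38 with the other clusters subtracted. Tsc22d3 and Mt2 reached the filter only through the control. In Nos3 null against that control, 5 of 9 were lower (Mt1, Fkbp5, Pdk4, Zbtb16 and Mt2), against 2.38% of all genes. Errfi1 was the 1 higher gene, against 6.34% of all genes. The median was −1.49, or −0.18 after the subtraction. Mt1, Pdk4 and Mt2 reached the filter there only through the control, which lowers the median. Klf4 dEC had 1 of 9 lower, 0 higher and a median of −0.62. Fkbp5 (chromosome 17, 28399094 to 28517527, minus strand), a glucocorticoid-induced chaperone, was 1.92 (1.73 to 2.13) in Klf4 dEC Nos3 null, 4.51 (4.14 to 4.91) in Klf4 dEC and 2.10 (1.80 to 2.44) in Nos3 null, against 8.77 (8.34 to 9.21) in the control. The control was highest, and the ratio of Klf4 dEC Nos3 null to it was −2.13, with −2.78 in cluster 2 and −1.004 at the other clusters' median. Zbtb16, a transcription factor gene with the same induction, was 1.48, 3.32 and 1.91 in those libraries, against 6.10 in the control. Tsc22d3 was 0.246 in Klf4 dEC Nos3 null and 0.780 in the control.

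Of 18 immediate early genes, 5 reached the filter in this comparison, Ier3 and Dusp1 only through Klf4 dEC Nos3 null. Ier3, a stress-response gene, was 1.08 in Klf4 dEC Nos3 null, 0.393 in Klf4 dEC and 0.491 in Nos3 null, against 0.139 in the control. The ratio of Klf4 dEC Nos3 null to the control was 2.30, with 0.58 in cluster 2 and 0.90 at the other clusters' median. Egr1 was 1.61, 1.42 and 1.48 in those libraries, against 0.589 in the control. Dusp1, a phosphatase of MAP kinases, was 0.724 in Klf4 dEC Nos3 null and 0.305 in the control (1.02), and cluster 2 moved with it (1.41). The summed level of the 18 genes in that list was 7.37, 5.52, 4.77 and 3.53 in the 4 libraries with the control last.

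**Figure D4:**
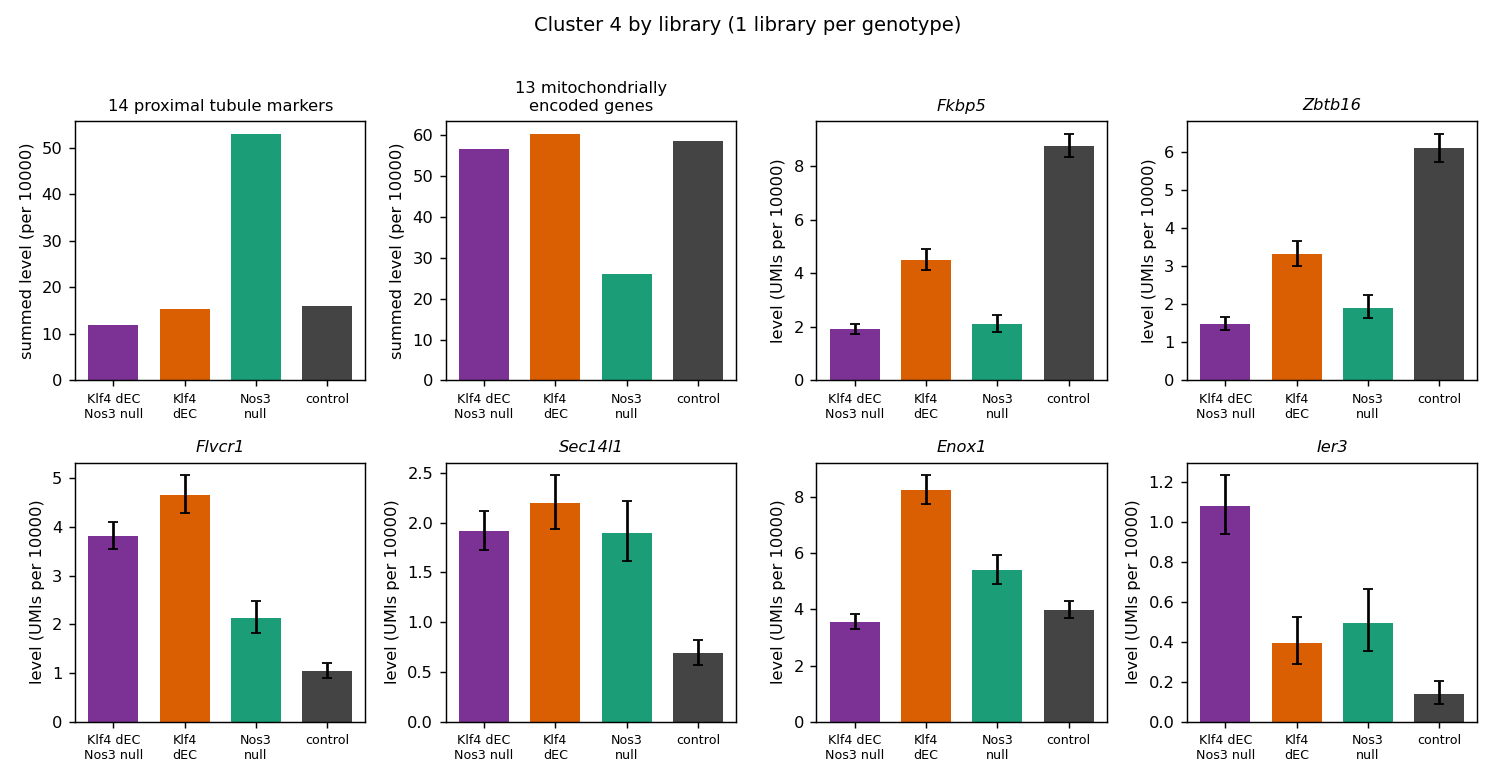
Levels in cluster 4 by library in UMIs per 10000: 2 list sums without error bars, and 6 genes with 95% exact Poisson intervals of the counts as bars. Proximal tubule markers are high in Nos3 null (53.1), Fkbp5 and Zbtb16 are highest in the control (8.77 and 6.10), and Sec14l1 and Ier3 are lowest there (0.689 and 0.139).

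Klf4 dEC Nos3 null against Nos3 null, which asks for the effect of the deletion without Nos3, gave 154 of 4372 genes higher (3.52%) and 265 lower (6.06%), and 39 (0.892%) and 132 (3.02%) with the other clusters subtracted. It shares the Nos3 null library with the comparison to the control. Of the 265 lower genes, 197 (74.3%) had their highest mean in 1 of the 7 clusters rich in proximal tubule markers, against 22.8% of those tested. Umod was 36.7 in Klf4 dEC Nos3 null and 13.4 in Nos3 null, a ratio of 1.45, and Slc12a1 210 and 107, at 0.97. Pdk4, a brake on pyruvate oxidation, was 1.42 and 0.132, at 2.71, with 0.61 at the other clusters' median. Fth1, the ferritin heavy chain gene, was 4.6 and 0.793, at 2.40, and the other clusters moved by as much, at 2.37.

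Klf4 dEC Nos3 null against Klf4 dEC, which asks for the effect of Nos3 loss with the deletion, gave 17 of 4152 genes higher (0.409%) and 33 lower (0.795%), with the median gene at 0.11. Relative to that median the split was 9 higher and 48 lower. With the other clusters subtracted it was 4 (0.0963%) and 13 (0.313%). Of the 42 genes lower in cluster 4 than in cluster 19, 18 were tested, 3 were lower (Enox1, Nrxn3 and Cntn5), 0 were higher and 15 lay below 0, with a median of −0.48 (all genes, 0.11). This comparison shares the Klf4 dEC library with that of Klf4 dEC to the control. Enox1 was 3.55 in Klf4 dEC Nos3 null and 8.25 in Klf4 dEC, a ratio of −1.20 (−1.36 to −1.08), with −0.20 in cluster 19 and −0.19 in cluster 2. Defb1, the beta-defensin gene, was 1.85 in Klf4 dEC Nos3 null and 6.18 in Klf4 dEC (−1.69), and cluster 2 was at −2.53. Gclc, of glutathione synthesis, was 1.58 and 4.57 (−1.48), with −0.30 at the other clusters' median. Pdk4 was higher, at 1.42 in Klf4 dEC Nos3 null and 0.485 in Klf4 dEC (1.38).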

How the data were processed

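Nuclei of mouse kidney cortex were profiled as droplet libraries, 1 per genotype. The deposited table holds 21046 genes in 92 columns, 23 clusters by 4 libraries, and 0 other columns of values. Its signal is, from the values, the mean over nuclei of UMIs per 10000, and the authors deposited no counts. Cell Ranger and Seurat are named per the submitters' processing notes, with genome build mm10, and no versions. The treatment of doublets is not stated in these sources.

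The number of nuclei in a column was taken as the largest divisor of at least 85% of the reciprocals of its lowest values, and UMI totals followed from it. Levels have exact Poisson and ratios Clopper-Pearson intervals, both for counting error only. Ratios are log2 with 0.1 added, for genes at 0.5 per 10000 or more in the higher group, and the limit is 2-fold. The steps were tested on simulated data. No test was possible with 1 library per genotype.

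Members and the 34 gene lists were chosen with earlier results of these data known. Named genes are the 12 highest and lowest per cluster contrast, the 10 highest and lowest per comparison of libraries, the 5 highest and lowest after subtraction of the other clusters, and list members. The 7 clusters rich in proximal tubule markers had sums of 100 or more in every library, a value chosen after seeing the data. Cluster 7, a mixed-segment cluster by its working name, is among them at 133.2 to 140.8. Genes highest there were counted too. Other pseudocounts, filters and scalings were tried. Sequences are from RefSeq on GRCm38.p6, coordinates from GENCODE. Python 3.11.15, pandas 2.3.3, numpy 2.4.6, scipy 1.17.1 and matplotlib 3.10.9 were used. Some genes of the lists are not reported here.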

Additional observations from a re-analysis of the deposited data

How the results depend on the processing

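Counts of genes past 2-fold depended on the added value and the filter. With 0.5 added, cluster 4 differed from cluster 2 in 20 genes and from cluster 19 in 45. The counts were 63 and 118 without the filter, and 43 to 69 and 93 to 141 with 1 library left out, highest without Nos3 null (69 and 141). The count of genes highest of all clusters was 0 to 1 with 1 library left out (1 without the control), and it was not rescaled by the median ratio. Between libraries, 0.5 added gave 14 genes for Klf4 dEC Nos3 null over control, 12 for Klf4 dEC over control (all higher), 183 for Nos3 null over control, and, for Klf4 dEC Nos3 null, 210 against Nos3 null and 13 against Klf4 dEC. A filter at 1 gave 29, 31, 223 and 242 for the first 4 of these. No filter gave 91 for Klf4 dEC, 684 for Nos3 null, 837 and 98. Subtracting the other clusters gave 19, 18, 129, 171 and 17. That subtraction reversed 5 of 100 named values: Gm47283 at −0.17 and Gm11520 at 0.58 in Klf4 dEC Nos3 null over control, Mettl23 at −0.026 and Ubb at −0.049 over Nos3 null, and Bcl6 at −0.022 over Klf4 dEC. The cause was not tested. Shares of nuclei did not move with divisors of 80% or 90%, chosen after seeing the data. No paired analysis was possible because each genotype has 1 library, while ratios between clusters were taken within each library. Depth limits Nos3 null and cluster 19 most.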

Other observations

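Of 19 clock genes, 8 were tested in Klf4 dEC Nos3 null against the control, and 3 were lower past 2-fold (0.609% of all genes), 0 were higher and 3 lay above 0. Their median was −0.24 (all genes, 0.07), and −0.0090 with the other clusters subtracted. Dbp and Per2 reached the filter only through the control. Tef, a transcription factor of the clock output, was 1.57 in Klf4 dEC Nos3 null, 2.34 in Klf4 dEC and 2.19 in Nos3 null, against 3.83 in the control. Its ratio for Klf4 dEC Nos3 null was −1.24, with −0.80 at the median of the other clusters. Dbp, of the same family, was 0.230 in Klf4 dEC Nos3 null and 0.634 in the control (−1.15), and the other clusters moved with it (−1.17). Per2, a core repressor of the clock, was 0.190 and 0.561 (−1.19). The labels give no time of day.

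In Nos3 null against the control, where 6.34% of all genes tested were higher, some genes of the neuronal adhesion and potassium channel lists were among them. Of 21 neuronal adhesion and synaptic genes, 13 were tested and 7 were higher, with a median of 1.35 (all genes, 0.04), and 0.05 with the other clusters subtracted. In Klf4 dEC against the control 8 were tested, so some of the 13 entered only through Nos3 null, which raises their count and median. Ctnna2, an alpha-catenin gene, was 1.72 in Nos3 null and 0.255 in the control, at 2.36, with 2.64 in cluster 2 and 1.38 at the median of the other clusters. Ctnna2 reached the filter only through Nos3 null. Of 19 potassium channel genes, 9 were tested there and 3 were higher. Kcnj15 was 2.15 in Nos3 null and 0.997 in the control, at 1.04, with 0.05 at the median of the other clusters. Kcnma1, the large-conductance channel, was 1.32 and 0.395, and Kcnk5 was 0.866 and 0.243, both of which reached the filter only through Nos3 null. The part of the library's proximal tubule marker sum in these values was not tested. Pde10a, a cyclic nucleotide phosphodiesterase gene that cluster 19 holds at 5.94 to 13.3, was 0.911 in Klf4 dEC Nos3 null, 0.422 in Klf4 dEC and 0.912 in Nos3 null, against 0.234 in the control in cluster 4.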
